A study of Lemna aequinoctialis with 6 samples.

Results

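The transcripts described here carry the names of proteins that plants encode in the DNA of their plastids and mitochondria. They were picked from the authors' deposited list of transcripts that differed between plants treated with indole-3-propionic acid (IPA) and control plants, by matching its descriptions to a fixed set of organelle gene products. The match gave 50 of 81787 assembled transcripts, from 34 of 28620 Trinity genes (Trinity assembles transcripts from reads without a genome, and its "genes" are groups of related assemblies). Of the 50, 23 carried names of 12 plastid products and 26 carried names of 17 mitochondrial products. The last, described as ATP synthase subunit beta, mitochondrial, goes against the label, since flowering plants encode that subunit in the nucleus. The files give no genome of origin, so the encoding genome is read from the product name alone.

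RNA of the duckweed Lemna aequinoctialis, a small floating flowering plant, was sequenced in 3 control and 3 IPA libraries. IPA is an indole compound related to the auxin indole-3-acetic acid. The labels name no strain, age, dose or duration, and do not say whether each library is a culture of its own, so the spread between libraries may be technical. The RNA came from ground, freeze-dried plants and passed through a stranded mRNA library kit, which selects RNA with poly(A) tails.

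Plastids descend from photosynthetic bacteria and mitochondria from respiring ones, and each keeps a small genome of its own. The plastid genome codes for the cores of both photosystems, the large chain of the carbon-fixing enzyme RuBisCO, and parts of the plastid's RNA polymerase and ribosomes. The mitochondrial genome codes for core subunits of the respiratory chain and for some ribosomal proteins, while the nucleus supplies the remaining subunits and most factors that process organelle RNA. In plant organelles a poly(A) tail usually marks RNA for degradation, and most functional organelle mRNA lacks a stable tail. Values from poly(A)-selected libraries therefore need not follow the total amount of an organelle mRNA, and this was not tested. In bulk RNA, fewer organelles or organelle-rich cells and less RNA per organelle cannot be told apart.

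All values below are the authors' normalised reads, scaled per library, and the files hold no transcript lengths, so levels are not compared between genes. The libraries held 30149649 to 45233584 reads, and 1 read was worth 0.0205 to 0.0318 normalised reads. A difference is the IPA mean minus the control mean of log2(value + 0.5), given with the standard error (SE) of limma, and it understates the change of low transcripts. The authors had already selected these transcripts for differing in the same comparison, at least 2-fold and at a false discovery rate (FDR) under 0.05. Their differences are therefore a description. Counts of members past a threshold are given beside the share of all transcripts past it, and nothing is read from them.

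In nearly all members 1 library, control 3, stood apart from the other controls. Over all transcripts tested its values correlated at 0.974 with control 2 and 0.936 with control 1. The correlation between controls 1 and 2 was 0.960. Control 3 lay below control 1 and control 2 in all 26 mitochondrial transcripts, and there it often lay among the IPA libraries. Controls 1 and 2 both lay above control 3 and above every IPA library in 48 of the 50 members, against 15.5% of the 78722 transcripts tested. The 2 exceptions were ATP synthase subunit beta and an RpoB transcript described below. The median gap between controls 1 and 2 and control 3 was 2.66 on the log2 scale for mitochondrial and 1.16 for plastid members, and -0.01 over all transcripts tested. Of the 20 transcripts with the largest such gap among all those tested, 9 were members. Composition moved in the same libraries. The authors' list holds 7 transcripts described as ART2, YLR154W-F and TAR1, which are reading frames at yeast ribosomal RNA loci, and as ycf68, which lies in the plastid ribosomal RNA operon. They took 24.0, 28.7 and 11.6% of all reads in the 3 controls, in the order of their numbers, and 5.46, 6.98 and 4.94% in the 3 IPA libraries. The share was thus highest in controls 1 and 2, intermediate in control 3 and lowest in IPA. With values rescaled to library totals outside the members and these 7 transcripts, a setting chosen after seeing the data, the median difference of the members was -1.70 and 17 members passed limma's FDR of 0.05 in the lower direction (background 3.85%). With the authors' scaling these were -1.72 and 14 (background 3.87%).

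In the 50 members the IPA mean lay below the control mean in 49. The median difference was -1.72 on the log2 scale, against 0.02 over all transcripts tested, and it was -2.27 without control 3. All 50 passed the filter on low counts, and the limma fit put 14 of them past an FDR of 0.05 in the lower direction, where the background over all transcripts was 3.87%, and 1 in the higher direction, where the background was 4.49% (8.37% in either direction). The quasi-likelihood test of edgeR, run on recovered counts, put 33 past it in the lower direction (background 3.97%) and DESeq2 put 45 (background 6.89%). By limma with 1 library left out, the lower count was 49 without control 3, where the background rose to 6.72%. It was 4 without control 1 (background 3.9%) and 2 without control 2 (background 0.771%). Without IPA 1, 2 and 3 in turn it was 3, 2 and 5, at backgrounds of 1.67, 0.752 and 1.31%. Several members are assemblies of the same Trinity gene and may share reads, so counts of members are not counts of genes. With values summed over each Trinity gene, unlisted transcripts and ycf68 included, 10 genes of members passed limma's FDR in the lower direction (background 4.68%). The median difference of these gene sums over the members' genes was -1.73. In 24 members every IPA library lay below every control, against 16.3% of all transcripts tested. These 24 were 15 of the 23 plastid and 9 of the 26 mitochondrial members, and in them control 3 lay above every IPA library, as it did in 34.3% of all transcripts. In 19 members control 3 lay within the IPA range, as it did in 32.7% of all transcripts, and in 7 it lay below every IPA library.

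**Figure D1:**
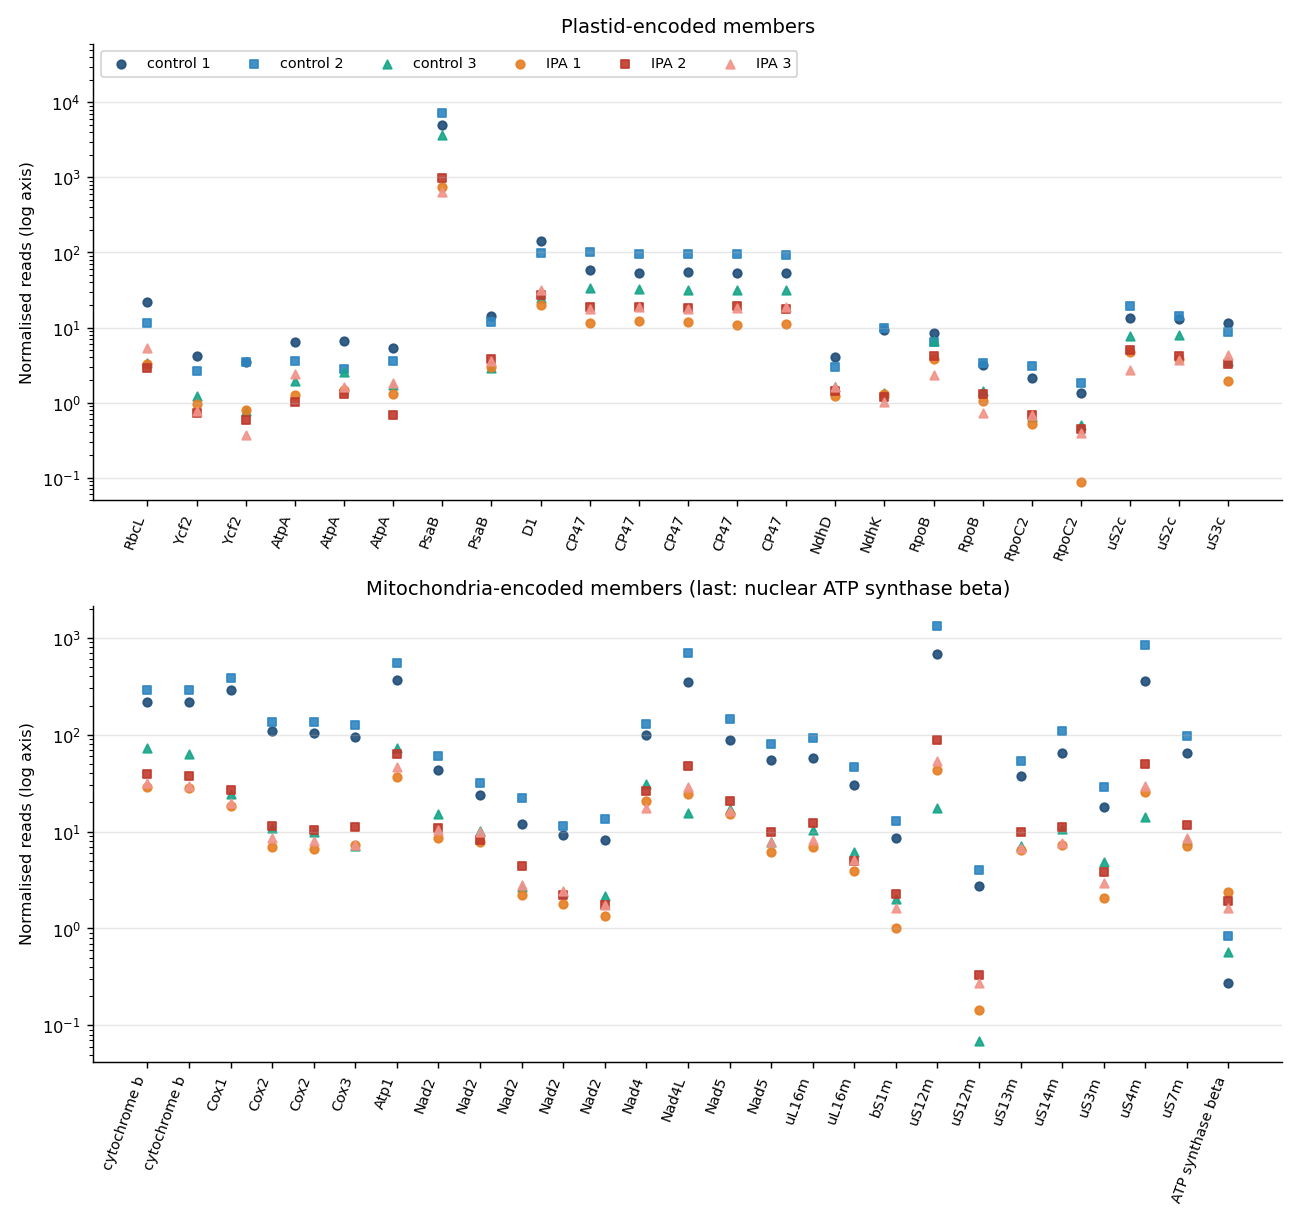
Normalised reads of each member in the 6 libraries (log axis), with plastid products above and mitochondrial products below; each column is 1 transcript and each point 1 library. Controls 1 and 2 lie on top in 48 of the 50 columns, while control 3 lies above every IPA library in 24.

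Summed over members, plastid transcripts held 0.475, 0.634 and 0.411% of the reads of the 3 controls and 0.0981, 0.122 and 0.0893% of those of the 3 IPA libraries (values are in the order of the library numbers throughout). The groups did not overlap, and control 3 stayed with the other controls. Mitochondrial transcripts held 0.293, 0.459 and 0.0470% in the controls and 0.0376, 0.0568 and 0.0414% in IPA. Here control 3 lay inside the IPA range. One transcript, of PsaB, held most of the plastid share: 0.428, 0.579 and 0.387% in the controls and 0.0855, 0.106 and 0.0720% in IPA. The other 22 plastid members together held 0.0469, 0.0553 and 0.0245% in the controls against 0.0125, 0.0165 and 0.0173% in IPA, which again did not overlap. All 50 members summed to 0.773 ± 0.317% of reads in the controls and 0.149 ± 0.0265% in IPA (SD, n = 3 each).

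**Figure D2:**
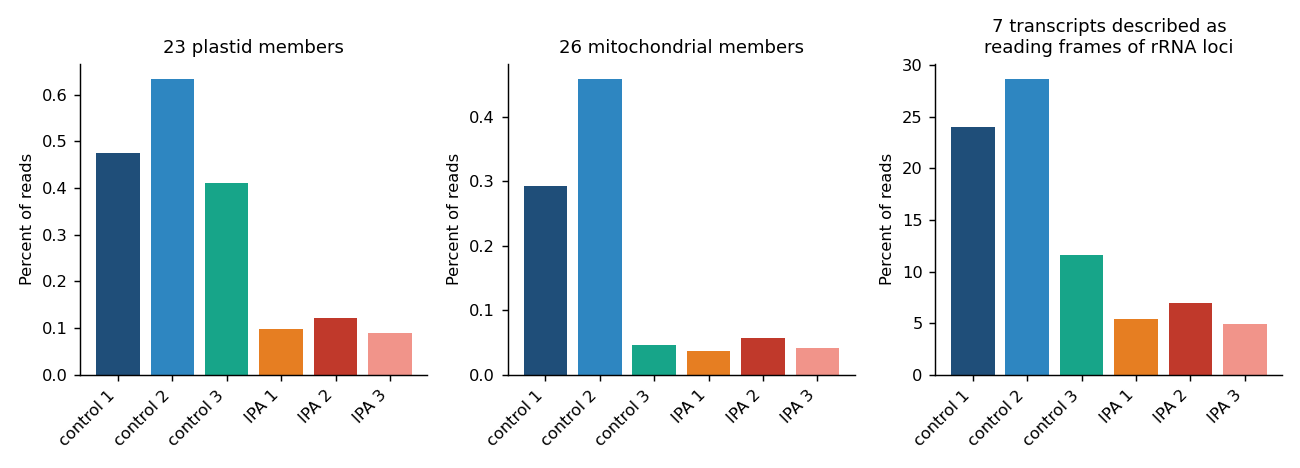
Percent of each library's reads in the plastid members, the mitochondrial members and the 7 transcripts named for reading frames of ribosomal RNA loci; each bar is 1 library and every axis starts at 0. Control 3 stays above IPA in the left and right panels, and at 0.0470% it lies within the IPA range of 0.0376 to 0.0568% in the middle panel.

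Among the photosynthetic members, the PsaB transcript DN60600_c0_g1_i1 had the highest values and the widest separation from IPA. PsaB is a reaction centre protein of photosystem I that binds the P700 chlorophylls. It held 4981, 7159 and 3662 normalised reads in the controls and 741, 978 and 647 in IPA. Every IPA library lay below every control, control 3 included, at a difference of -2.71 ± 0.27 (SE). A second transcript of the same Trinity gene, DN60600_c0_g1_i3, held 14.3, 11.7 and 2.93 in the controls and 2.99, 3.77 and 3.53 in IPA. In this one control 3 lay below all IPA libraries, so 2 assemblies of 1 gene placed that library differently.

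Photosystem II was represented by D1, the reaction centre protein that is replaced continually in the light, and by CP47, an inner antenna protein. D1 (DN9796_c3_g2_i2) held 143, 97.9 and 24.5 normalised reads in the controls and 20.1, 26.9 and 31.2 in IPA, so control 3 lay within the IPA range. CP47 came as 5 transcripts of 1 Trinity gene with nearly the same values. The highest, DN19500_c0_g4_i9, held 58.1, 100.2 and 33.2 in the controls and 11.6, 19.02 and 17.8 in IPA, a difference of -1.84 ± 0.36 (SE) without overlap. DN19500_c0_g4_i4 held 52.7, 94.9 and 32.4 in the controls and 12.4, 18.9 and 18.7 in IPA. All 5 CP47 transcripts kept control 3 above every IPA library; they are assemblies of 1 gene that may share reads, and count as 1 observation rather than 5.

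The large chain of RuBisCO, RbcL (DN4882_c0_g1_i2), held 21.999, 11.4 and 3.36 normalised reads in the controls and 3.27, 2.89 and 5.26 in IPA. Its groups overlapped through control 3, and the difference was -1.27 ± 0.57 (SE). An unlisted transcript of the same Trinity gene, DN4882_c0_g1_i1, was higher, at 54.5, 27.1 and 6.63 in the controls and 6.41, 8.29 and 13.5 in IPA, with the same order of the 3 controls. AtpA, the alpha subunit of the chloroplast ATP synthase, had 3 member transcripts in Trinity gene DN11298_c0_g1. The i21 transcript held 6.40, 3.56 and 1.94 in the controls and 1.26, 1.00 and 2.42 in IPA. The i55 transcript held 6.67, 2.83 and 2.58 against 1.47, 1.29 and 1.63. The i35 transcript held 5.40, 3.63 and 1.69 against 1.32, 0.676 and 1.80. Only i55 separated the groups, and all 3 were highest in control 1.

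The chloroplast NAD(P)H-quinone oxidoreductase, which carries electrons around photosystem I, was represented by 2 subunits. NdhK (DN26735_c0_g2_i3) held 9.38, 9.83 and 1.33 normalised reads in the controls and 1.32, 1.19 and 1.01 in IPA. NdhD (DN6545_c1_g1_i3) held 4.01, 3.02 and 1.62 in the controls and 1.24, 1.43 and 1.61 in IPA. In both, control 3 exceeded the highest IPA library by little, 1.33 against 1.32 and 1.62 against 1.61, so that the groups did not overlap. Each gap was smaller than the worth of a read in control 3, 0.0229. Both transcripts are among the 24 members counted as without overlap. NdhD also marked the inner edge of the choice: the authors' deposited table gives it a log2 fold change of -1.01 and an FDR of 0.0443.

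Plastid gene expression was represented by RNA polymerase and ribosomal subunits. RpoB, the beta subunit of the plastid-encoded polymerase, had 2 transcripts. DN9259_c2_g1_i8 held 8.57, 6.42 and 6.54 normalised reads in the controls and 3.85, 4.14 and 2.32 in IPA, and was the 1 plastid member in which control 3 was not below both other controls. Its difference was -0.99 ± 0.23 (SE), and the authors' deposited table gives a log2 fold change of -1.06. DN22281_c0_g1_i7 held 3.14, 3.40 and 1.42 in the controls and 1.06, 1.29 and 0.717 in IPA, also without overlap. RpoC2, the beta'' subunit (DN99140_c0_g1_i1), held 2.11, 3.05 and 0.640 in the controls and 0.517, 0.676 and 0.692 in IPA, where control 3 lay within the IPA range.

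Of the plastid ribosomal proteins, both uS2c transcripts separated the groups. DN12160_c1_g1_i6 held 13.5, 19.7 and 7.73 normalised reads in the controls and 4.65, 4.95 and 2.69 in IPA. DN12160_c1_g1_i5 held 12.9, 14.4 and 7.94 in the controls and 3.79, 4.18 and 3.73 in IPA, at a difference of -1.44 ± 0.23 (SE). The third, uS3c (DN15222_c0_g1_i1), overlapped, with 11.4, 8.68 and 3.57 in the controls and 1.95, 3.23 and 4.32 in IPA. Ycf2, a large protein of the plastid inner envelope linked to protein import, had 2 transcripts of Trinity gene DN16745_c0_g2. The i3 transcript held 4.22, 2.67 and 1.24 in the controls and 0.948, 0.737 and 0.766 in IPA, without overlap. The i7 transcript held 3.50, 3.44 and 0.778 against 0.804, 0.594 and 0.371, and overlapped through control 3. No maturase was in the authors' list under a name that the match would find.

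The mitochondrial members had lower differences (median -2.04 on the log2 scale, from -2.68 to -1.16) than the plastid members (median -1.27, from -2.71 to -0.75), and a control 3 nearer to IPA. Without control 3 the medians were -2.94 and -1.78. In all 26 mitochondrial members control 2 was the highest control, against 26.1% of all transcripts tested. IPA 2 was the highest IPA library in 23 of the 26, against 27.8%. Of the 23 plastid members 12 had control 2 as the highest control and 11 had control 1, which was the highest in 38.4% of all transcripts tested. The mitochondrial members thus kept a nearly fixed order of libraries within both groups, while the plastid members were divided.

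Complex I, the NADH dehydrogenase that feeds electrons into the respiratory chain, had 9 member transcripts of Nad2, Nad4, Nad4L and Nad5. Nad4L (DN635_c5_g1_i6) held 352, 689 and 15.7 normalised reads in the controls and 24.2, 47.7 and 28.6 in IPA. Control 3 was the lowest of all 6 libraries, and the difference of -2.28 had an SE of 1.22. Nad5 (DN0_c12_g1_i13) held 89.0, 144 and 16.9 in the controls and 15.3, 20.5 and 16.2 in IPA, so control 3 lay within the IPA range. Nad4 (DN8193_c1_g1_i7) held 98.5, 128 and 30.8 in the controls and 20.6, 26.4 and 17.7 in IPA, and separated the groups. Of the 9 complex I transcripts, 4 did so, against 16.3% of all transcripts tested. Apart from Nad4, these were assemblies of the same Nad2 Trinity gene, DN12360_c0_g1, and may share reads.

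Cytochrome b, the mitochondria-encoded subunit of complex III, had 2 transcripts with nearly equal values that may share reads. DN1461_c0_g1_i13 held 216, 289.9 and 72.0 normalised reads in the controls and 29.1, 39.2 and 31.4 in IPA. DN1461_c0_g1_i8 held 217, 287 and 63.4 in the controls and 28.5, 37.4 and 29.3 in IPA. Both separated the groups, at -2.31 ± 0.45 and -2.31 ± 0.49 (SE), and the control 3 value was 2.17 and 2.00 times the IPA mean, the highest such ratios among the mitochondrial members. The same Trinity gene also holds both listed transcripts described as ycf68, a plastid product. These held 22879, 23992 and 11787 normalised reads in the controls and 4751, 6047 and 6397 in IPA for i5, and 8642, 10744 and 4122 against 1380, 1847 and 2305 for i7. Names of products of both organelles thus fall in 1 Trinity gene. Why they do, and whether reads were shared between these transcripts, was not tested.

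Complex IV, cytochrome c oxidase, passes electrons to oxygen, and its 4 member transcripts had the lowest median difference of the mitochondrial classes, -2.60. Cox1 (DN8729_c1_g1_i1), the catalytic core, held 287, 385 and 24.5 normalised reads in the controls and 18.5, 26.8 and 19.6 in IPA. Cox2 transcript DN346_c2_g1_i4 held 110.3, 136 and 10.9 in the controls and 6.89, 11.4 and 8.53 in IPA. Its neighbour DN346_c2_g1_i2 held 104, 135 and 10.0 against 6.66, 10.4 and 7.93. In none of the 4 did control 3 lie above every IPA library, although controls 1 and 2 together averaged 11.3 to 15.8 times control 3. An unlisted transcript of the same Cox2 Trinity gene, DN346_c2_g1_i5, had another order, with 233, 285 and 154 in the controls and 88.8, 89.8 and 65.4 in IPA. There control 3 stayed with the controls, and the difference was -1.43.

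The mitochondrial ATP synthase was the only class with members in both directions. Atp1 (DN94881_c0_g1_i1), the mitochondria-encoded alpha subunit, held 363, 544 and 72.4 normalised reads in the controls and 36.6, 63.1 and 46.4 in IPA, without overlap, at -2.34 ± 0.67 (SE). ATP synthase subunit beta (DN48326_c0_g1_i1), its nucleus-encoded partner in the catalytic head, was the only member higher in IPA. It held 0.272, 0.827 and 0.572 in the controls and 2.38, 1.94 and 1.63 in IPA, at 1.26 ± 0.24 (SE). These are low values of a single transcript, and unlisted transcripts of this subunit would not be found by name. Control 3 lay between the other controls.

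The mitochondrial ribosomal proteins held the members with the widest gap between controls. uS12m (DN3328_c2_g1_i1) held 681, 1307 and 17.7 normalised reads in the controls and 43.6, 88.1 and 54.0 in IPA. The mean of controls 1 and 2 was 56.2 times control 3, and on the log2 scale that gap of 5.70 ranked 1 among the 78722 transcripts tested. uS4m (DN21239_c0_g1_i1) held 358, 838 and 13.999 in the controls and 25.7, 49.4 and 29.3 in IPA. In both, control 3 was the lowest of the 6 libraries, and the differences were -2.08 ± 1.39 for uS12m and -2.27 ± 1.30 for uS4m (SE). The authors' deposited table gives them its largest member fold changes, -3.43 for uS12m and -3.53 for uS4m on the log2 scale. uS14m (DN0_c10_g1_i5) held 65.1, 109.96 and 10.7 in the controls and 7.30, 11.3 and 7.61 in IPA. Of the 10 ribosomal members 2 separated the groups, a share near the 16.3% of all transcripts tested.

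**Figure D3:**
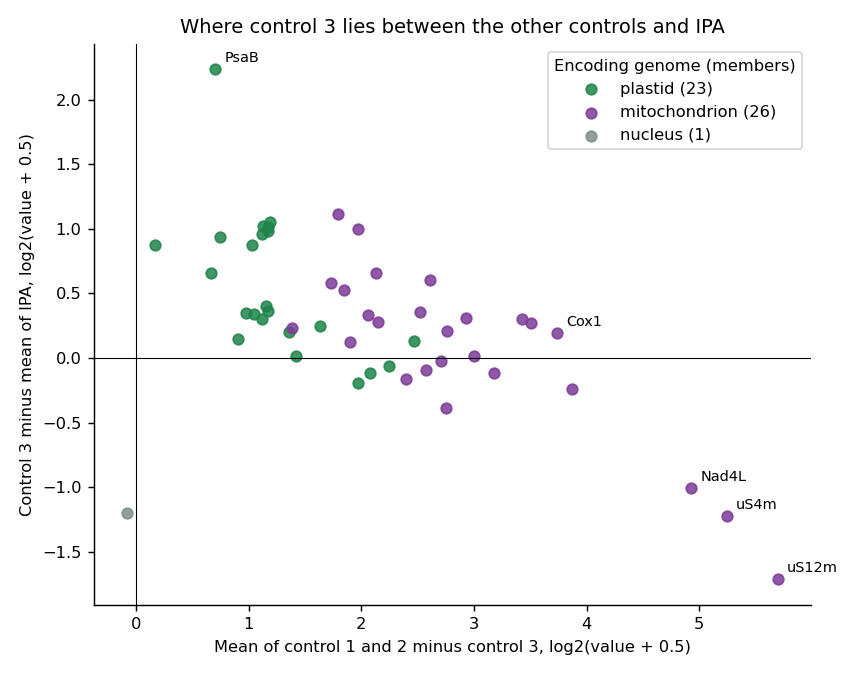
Each point is 1 member; the horizontal axis is the mean of controls 1 and 2 minus control 3, and the vertical axis control 3 minus the IPA mean, both in log2(value + 0.5). PsaB (top left) shows a control 3 far above IPA, while uS12m, uS4m and Nad4L (bottom right) show a control 3 below the IPA mean by 1.72, 1.23 and 1.01.

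The 18 members not named by value comprised 3 CP47 transcripts, 1 of RpoC2, 5 of Nad2, 1 of Nad5, 1 of Cox3 and 7 mitochondrial ribosomal transcripts. All 18 were lower in IPA, at -2.34 to -1.04 with a median of -1.75, and 9 separated the groups, against 16.3% of all transcripts tested. The 9 include the 3 CP47 transcripts, all of the same Trinity gene, and several Nad2 assemblies of another, DN12360_c0_g1. They therefore stand for fewer genes.

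Outside the chosen transcripts, their 34 Trinity genes held 41 more, of which 39 were not in the authors' list. The list holds no transcript without a description, and descriptions reach 6.23% of the table, so further organelle transcripts would not be found by name. Of the 35 unlisted transcripts that could be tested, 27 were lower and 8 higher in IPA, at -1.43 to 0.34 with a median of -0.21. In 6 of them every IPA library lay below every control, against the 16.3% over all transcripts. The AtpA Trinity gene alone held 26 of the 39. Just outside the choice there lay its i44 transcript, with 6.16, 3.37 and 1.46 normalised reads in the controls and 0.948, 1.29 and 2.22 in IPA, at -0.95. In 24 of the 34 Trinity genes every transcript was a member. Over all transcripts tested, 3776 limma calls were at least 2-fold, and 1061 of these were not in the authors' list.

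**Figure D4:**
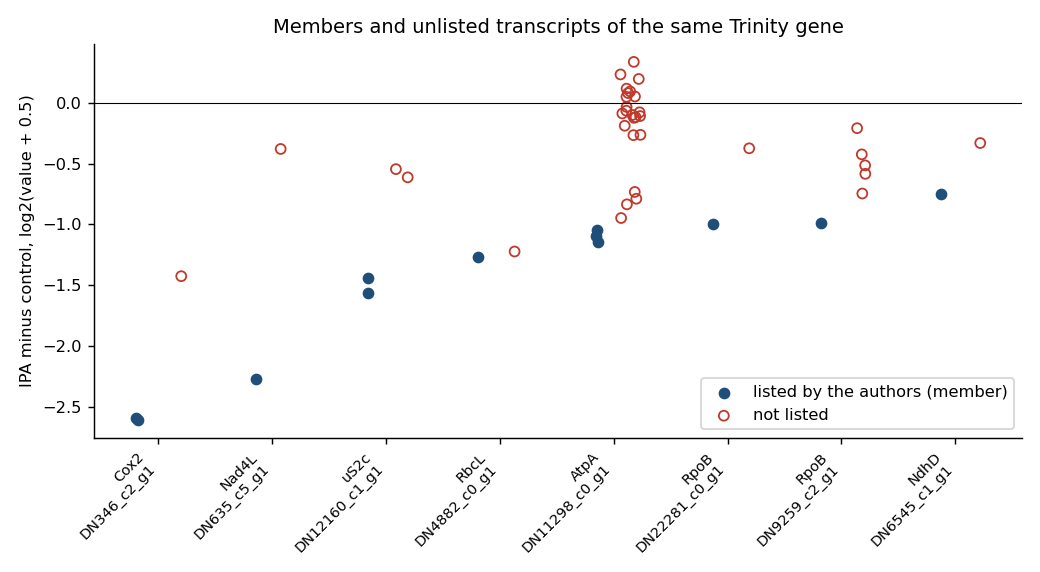
IPA minus control in log2(value + 0.5) for member transcripts (filled) and unlisted, tested transcripts (open) of the 8 Trinity genes that hold both. The members lie below the unlisted transcripts of their Trinity gene, and the AtpA gene holds unlisted transcripts on both sides of 0. The authors selected by fold and FDR, but Cox2 DN346_c2_g1_i5 (-1.43) and RbcL DN4882_c0_g1_i1 (-1.22) are unlisted at more than 2-fold. Why they are unlisted was not tested.

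Nucleus-encoded partners in the same authors' list are described by their direction, beside 50.8% of all listed transcripts that rose and 49.2% that fell in that list. Of the listed photosystem subunits and chlorophyll-binding proteins that the nucleus supplies, 63 of 63 were higher in IPA, with a median of 1.81 on the log2 scale. PsaB, D1 and CP47, which they assemble with, were lower. Of the nuclear RuBisCO transcripts (small chains and assembly or activation factors), 10 of 10 were higher, with a median of 1.26, while RbcL was lower. Among factors of organelle gene expression, 76 of 88 were higher and 12 lower in the authors' deposited table. In the limma fit the median difference of the 88 was 0.87 on the log2 scale. Of these, 80 were pentatricopeptide repeat proteins, which bind, edit and stabilise organelle RNA, and 70 of the 80 were higher. The search for nuclear organellar ribosomal proteins required the word chloroplastic or mitochondrial in the description, and it matched none. The ribosomal members carry only a suffix c or m, so the lack of a match does not show that such proteins were absent. The authors' selection on the same comparison fixed that these transcripts differ, so their directions and medians are a description only.

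The listed respiratory transcripts outside the members were 16, and all were lower in IPA. Of these, 5 were described as iron-sulfur protein 2 of complex I, which flowering plants encode in the mitochondrion as Nad7, with differences of -2.15 to -1.19. The other 11 were nuclear, with a median of -0.93 and a range of -1.15 to -0.72. One of them, succinate dehydrogenase subunit 7 (DN7163_c0_g1_i1), held 44.2, 32.9 and 29.0 normalised reads in the controls and 15.7, 15.3 and 15.1 in IPA. It is named after its values were seen, for the position of control 3, which here lay near control 2 and well above IPA.

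**Figure D5:**
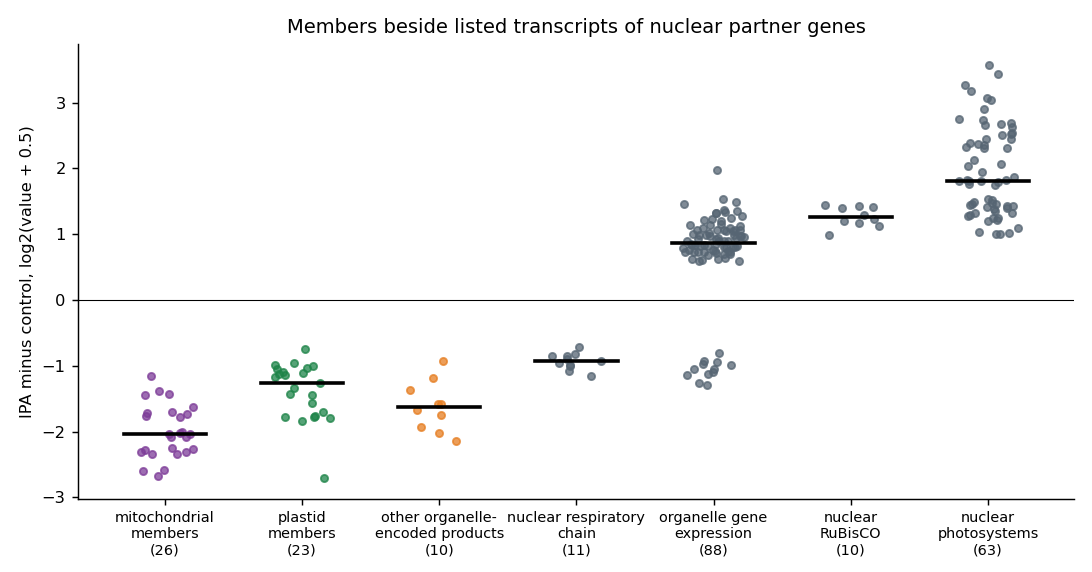
IPA minus control in log2(value + 0.5) for the plastid and mitochondrial members and for the authors' listed transcripts of partner genes. Each point is 1 transcript, each bar a median, and the number of transcripts is in brackets. The member ATP synthase subunit beta, at 1.26, is not shown. The members shown and the respiratory partners lie below 0, and the nuclear photosystem and RuBisCO transcripts above it. Every set was drawn from a list chosen for differing.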

How the data were processed

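Normalised reads per transcript of a Trinity assembly are what the authors deposited, a signal on a scale of its own in each library. FastQC, Trimmomatic, BWA, featureCounts and edgeR are named, without versions or settings, per the submitters' processing notes. The authors' deposited list gives a log2 fold change, a p-value, an FDR, a log2 abundance and a likelihood-ratio score for 5093 transcripts (2586 rose, 2507 fell). Whole reads were recovered from 100% of values within 0.01 reads.

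Transcripts with low counts were removed by filterByExpr of edgeR (minimum count 10, minimum total 15), leaving 78722. Values as log2(value + 0.5) were fitted with limma (trend and robust), IPA against control over 6 libraries, with Benjamini-Hochberg FDR at 0.05. The fit called 6587 transcripts, and edgeR's quasi-likelihood test on the recovered counts 6476. Versions were R 4.3.3, limma 3.58.1, edgeR 4.0.16 and DESeq2 1.42.0. The fit was tested on simulated data.

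Of the 5093 descriptions 5073 end in a space, which was trimmed before matching; untrimmed, the match finds 35 of the 50 members. The members and lists were chosen with earlier results of these data known. Named with values were the 3 members of each class with the highest mean, every member opposite in direction to most, and the 2 smallest and 2 largest folds of the authors' table. Columns of other samples numbered 0.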

Additional observations from a re-analysis of the deposited data

How the results depend on the processing

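The median difference of the members, -1.72, kept its sign under every alternative run, from -2.27 without control 3 to -1.24 without control 2. Each of these medians lay within the spread between libraries, but at an SD of 0.98 on the log2 scale that is a loose bound. None of the 32 named members reversed in any of 512 alternative values (503 within the spread, 9 beyond it). The counts moved more, and the cause was not tested. Members past the FDR and lower in IPA numbered 14 by limma, 33 by edgeR's quasi-likelihood test (background 3.97%) and 45 by DESeq2 (background 6.89%). Among the 26 mitochondrial members only, these counts were 3, 20 and 22. Leaving out 1 library at a time gave 2 to 49 by limma, while the share of all transcripts that fell ranged from 0.752 to 6.72%. Over all transcripts the 6587 calls became 11816 with library totals, 11549 with totals outside members and ribosomal RNA descriptions (which matched no transcript, so that only the members were taken out), 7020 with totals outside members and the reading frames of ribosomal RNA loci, 10358 by DESeq2 and 1278 to 10465 with 1 library left out. Library totals moved the median of all transcripts from 0.02 to 0.25 on the log2 scale and the share of calls that rose from 53.7 to 84.1%, and the totals without those reading frames gave 56.8%. Over all transcripts tested, libraries with the same replicate number showed little shared deviation (correlations of deviations -0.09, 0.08 and -0.13). In the mitochondrial members control 2 and IPA 2 were mostly the highest of their group, and whether these libraries share an effect was not tested. A fit with the replicate block gave 4377 calls and 16 members that fell (background 2.69%). The share of reads in the members, IPA minus control, was -0.625 percentage points, -0.863 with a total without the reading frames of ribosomal RNA loci (chosen after seeing the data), and -2.19 over all transcripts of the members' Trinity genes, which include ycf68. With 3 libraries a group, the SE of a mitochondrial member reached 1.39.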

Other observations

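In the authors' list 10 further transcripts carry names of products that flowering plants encode in an organelle but that the match did not take; they were chosen after their values were seen. They are cytochrome f of the plastid, the mitochondrial cytochrome c maturation proteins CcmC, CcmFC and CcmFN2, and 5 transcripts of iron-sulfur protein 2 (Nad7). All 10 were lower in IPA in the authors' deposited table. CcmC (DN2878_c1_g3_i7) held 61.9, 98.4 and 7.80 normalised reads in the controls and 7.38, 12.6 and 8.58 in IPA. CcmFC (DN635_c4_g4_i1) held 56.6, 85.6 and 10.1 in the controls and 7.01, 10.99 and 8.58 in IPA. In both, control 2 was the highest library, and control 3 lay within the IPA range, as in 12 of the 26 mitochondrial members. Cytochrome f (DN14725_c1_g1_i13) held 5.28, 3.72 and 1.94 in the controls and 1.44, 1.23 and 2.13 in IPA, highest in control 1.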
